A study of Mus musculus with 25 samples.

Results

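Most mammalian genes are cut into many exons, and the genes described here are those for which the deposited intron list gave a single intron. The rule used no measured value: an intron was taken when its gene occurred once in the list. The choice of this part was made with earlier results of these data known. This gave 1478 of 163337 introns, each the only listed intron of 1 of 17596 genes. The material was whole tumors from 4 transplantable mouse models of triple-negative mammary cancer, each derived from engineered mice and grown orthotopically in females aged 4 to 5 weeks at transplant. Hosts were randomized and dosed daily with H3B-8800, a drug taken by mouth whose target is SF3B in the spliceosome, or with vehicle. The PyMT-M model (C57BL/6 hosts, labelled responder) had 4 H3B-8800 and 4 vehicle libraries, AT3 (C57BL/6, labelled nonresponder) 2 and 3, 2208L (Balb/c, labelled responder) 3 and 3, and T11 (Balb/c, labelled nonresponder) 3 and 3. All 25 libraries held polyadenylated RNA of whole tumors, so host stroma and immune cells were included, and the design text calls the replicates separate tumors. How response was measured is not given in the sources used here.

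An intron is removed after the spliceosome has recognised its 5′ end, the branch point and the AG at its 3′ end. SF3B sits in the U2 particle, which pairs with the branch point, an adenosine a short way upstream of the AG. When an intron is not removed it stays in the transcript as a retained intron, and many genes with a single intron are short, quickly made regulators, such as immediate early genes, ubiquitin genes, HOX genes and receptors whose whole coding sequence lies in 1 exon. A gene with 1 intron has 1 chance to be spliced, and the reads across that junction are also the only reads counted here for its level.

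Not every member is a gene with a single intron in other annotations. In GENCODE M21 the listed transcript had 1 intron for 1120 members and more than that for 316, and 42 were not matched. The intron interrupted the coding sequence in 870 members, lay in the 5′ UTR in 543 and in the 3′ UTR in 38. Its median length was 2107 bases, with a range of 40 to 729767. Another annotated exon lay inside 294 of the introns, and 238 were overlapped by a gene on the other strand. The library kit marks strand, but whether the counting used it is not given in the sources used here, so reads of such a pair could not be told apart.

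The ends of introns that carry the findings are printed next, because the 3′ end is where the drug's target acts. The bases were read from GENCODE M21 transcripts that run through the intron (mm10 coordinates), 5′ to 3′ in the sense of the gene. Capitals mark the first 2 bases, where the whole intron is shown, the closing AG, and each match to CTNA within 15 to 50 bases before the end, a short form of the branch point motif. First come introns that rose with H3B-8800 in PyMT-M, AT3 and 2208L, although the AT3 call of Tgif1 (adjusted p = 0.026) was up to 0.392 without vehicle 1, vehicle 3 or H3B-8800 2. Pgp, BC003965, Ankrd49 and Commd5 are outside the rule for named genes and were shown, after their values were seen, because their sequence could be read.

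Pgp (whole intron, chr17:24471150-24471241, plus strand): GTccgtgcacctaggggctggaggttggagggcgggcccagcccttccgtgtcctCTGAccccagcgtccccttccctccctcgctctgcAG

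BC003965 (whole intron, chr17:25184641-25184719, plus strand): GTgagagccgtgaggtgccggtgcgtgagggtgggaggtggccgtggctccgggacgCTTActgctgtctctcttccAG

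Fadd (last 50 bases, chr7:144580861-144580910, minus strand): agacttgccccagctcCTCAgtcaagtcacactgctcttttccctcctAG

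Tgif1 (last 50 bases, chr17:70845273-70845322, minus strand): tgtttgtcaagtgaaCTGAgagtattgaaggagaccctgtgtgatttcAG

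Ankrd49 (last 50 bases, chr9:14781612-14781661, minus strand): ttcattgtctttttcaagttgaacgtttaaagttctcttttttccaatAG

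Arf6 (last 30 bases, chr12:69372294-69372323, plus strand): actcccttctccctctctgtgtccctgcAG

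For comparison, Commd5 rose in PyMT-M and AT3 and did not pass in 2208L, Id1 passed in PyMT-M alone, Rgs19 passed in AT3 and 2208L, and as lower in T11 as labelled (-2.96, adjusted p = 0.016), but these calls were lost without 4 of 5, 5 of 6 and 3 of 6 single libraries (adjusted p up to 0.0962, 0.127 and 0.105), and Gpx1, Tsc22d3 and Hs6st1 passed in no model.

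Commd5 (last 30 bases, chr15:76900322-76900351, plus strand): aagtcacttgtctctccttcacctctccAG

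Id1 (whole intron, chr2:152736746-152736971, plus strand): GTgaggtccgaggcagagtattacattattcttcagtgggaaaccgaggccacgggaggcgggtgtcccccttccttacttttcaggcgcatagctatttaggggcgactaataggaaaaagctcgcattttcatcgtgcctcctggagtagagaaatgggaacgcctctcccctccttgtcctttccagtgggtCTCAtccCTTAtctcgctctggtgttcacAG

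Rgs19 (last 50 bases, chr2:181689612-181689661, minus strand): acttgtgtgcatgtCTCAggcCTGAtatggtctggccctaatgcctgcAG

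Gpx1 (whole intron, chr9:108339559-108339776, plus strand): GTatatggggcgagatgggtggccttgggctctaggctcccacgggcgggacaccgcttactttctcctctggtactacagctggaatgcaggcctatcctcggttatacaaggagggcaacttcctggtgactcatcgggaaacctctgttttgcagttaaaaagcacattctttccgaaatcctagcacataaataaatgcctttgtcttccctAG

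Tsc22d3 (last 50 bases, chrX:140541108-140541157, minus strand): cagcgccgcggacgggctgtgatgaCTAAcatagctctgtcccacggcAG

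Hs6st1 (last 50 bases, chr1:36103463-36103512, plus strand): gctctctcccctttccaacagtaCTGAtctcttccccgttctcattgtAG

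The last 50 bases could be read for 136 members, and all 136 ended in AG. CTNA, searched on the sense strand alone, was found in 88 of the 136 (64.7%). It was found in 21 of 31 introns that rose in PyMT-M (67.7%), in 11 of 19 tested introns that did not pass there (57.9%) and in 55 of 85 that were not tested (64.7%). The median pyrimidine share of these 50 bases was 66.7% in introns that rose and 62.5% in those that did not pass. These are counts over few introns, chosen by whether a transcript ran through them, and no test was made. No match in Ankrd49 or Gpx1 says only that these letters are not in that window.

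Retention is given as the percent of the reads overlapping an intron that lay inside it, and gene level as the reads spliced across it, scaled to library size (CPM). A long intron can hold more reads than a short one, so the percent is not the share of transcripts that keep the intron. Libraries held 9820825 to 19700955 spliced and 858362 to 5684308 intronic reads over all genes, of which the one-intron genes took 0.440% to 2.11% of the spliced reads. Of the 1478 members, 292 had no read in any library, 612 passed the minimum for a test of level and 417 that for retention, and the results below hold for those. The minimum was set on the mean over all libraries, and 37 of the 417 would have missed it in the vehicle libraries alone, against 3 in the H3B-8800 libraries alone. Changes are log2 fold changes ± SE of H3B-8800 over vehicle and were tested in edgeR by quasi-likelihood, with Benjamini-Hochberg adjustment over all 52042 introns or 13001 genes tested in the series. Means are ± SD over the libraries of a group.

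T11 went against its labels. Where the other 3 models had more intronic reads under H3B-8800, the T11 libraries labelled H3B-8800 had fewer than those labelled vehicle. They are therefore called by their label throughout, and the cause was not tested. Libraries also differed in tissue markers. Summed skeletal muscle markers reached 284 and 182 CPM in PyMT-M H3B-8800 replicates 1 and 2, against at most 6.72 CPM in PyMT-M vehicle libraries. They reached 495 CPM in a T11 library labelled H3B-8800, 4592 CPM in a T11 library labelled vehicle and 3292 CPM in a 2208L vehicle library. AT3 vehicle replicate 2 held 52.3 CPM of B cell and 26.7 CPM of T cell markers. Summed macrophage markers were 315 to 440 CPM under H3B-8800 and 72.2 to 228 CPM under vehicle in PyMT-M, and 775 to 883 CPM and 115 to 442 CPM in 2208L. Epithelial markers were 98.0 to 495 CPM in AT3 and T11, with up to 3 of 6 at 0, against 3078 to 6493 CPM in PyMT-M and 2208L.

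The middle intron of the one-intron genes kept more reads under H3B-8800 in PyMT-M, AT3 and 2208L. In PyMT-M the median percent over introns was 52.1, 44.6, 45.2 and 47.8 in the H3B-8800 libraries, against 28.9, 19.1, 26.6 and 32.0 in the vehicle libraries. Every PyMT-M H3B-8800 library lay above every vehicle library. In AT3 the medians were 36.5% and 47.4% under H3B-8800, against 21.4%, 34.1% and 25% under vehicle, close to each other at 1 vehicle library but without overlap. In 2208L they were 31.3%, 30.1% and 29.9% under H3B-8800, against 14.1%, 20.9% and 21.7% under vehicle. The T11 libraries labelled H3B-8800 stood at 17.6%, 25.2% and 26.7%, against 28.8%, 38.7% and 33.3% in those labelled vehicle, also without overlap and in the other direction. No p is given for a score over these members.

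**Figure D1:**
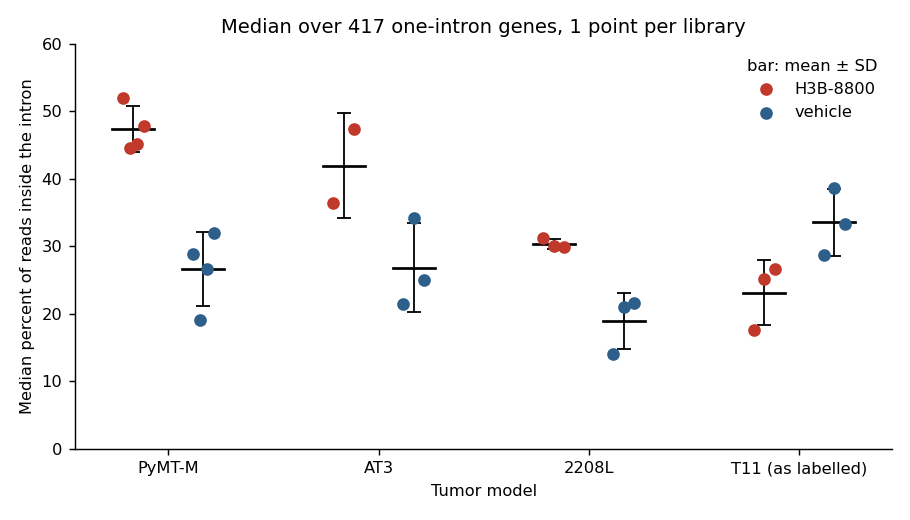
Median percent of reads inside the intron over the tested one-intron genes, per library (points), with group mean and SD (bars), by model; H3B-8800 left of vehicle. The H3B-8800 libraries lie above the vehicle libraries in PyMT-M (47.4 ± 3.39 against 26.7 ± 5.51), AT3 (42.0 ± 7.75 against 26.8 ± 6.57) and 2208L (30.4 ± 0.744 against 18.9 ± 4.18), and below them as labelled in T11 (23.2 ± 4.83 against 33.6 ± 4.97).

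Pooling reads over all members let 1 gene decide the value in PyMT-M. Scgb2b27, a secretoglobin of gland secretions, had reads in PyMT-M only and was almost fully spliced, at 0.177% ± 0.137 under H3B-8800 and 0.788% ± 0.445 under vehicle (n = 4 each). With it the pooled PyMT-M percent was 22.3 ± 6.89 under H3B-8800 and 15.4 ± 7.0 under vehicle, and without it 40.2 ± 4.02 and 26.6 ± 5.10. The pooled percent was 34.3 ± 8.08 under H3B-8800 and 29.4 ± 3.56 under vehicle in AT3, 26.1 ± 1.26 and 16.9 ± 2.80 in 2208L, and 22.7 ± 3.81 and 31.2 ± 6.10 as labelled in T11. In AT3 the pooled difference of 4.86 percentage points was -0.849 without H3B-8800 replicate 2 and 10.6 without H3B-8800 replicate 1.

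Single introns were then tested for each model. In PyMT-M, 187 of the 417 introns rose and 24 fell (50.6% called), where 60.3% of all introns tested in the series were called, 54.7% higher and 5.68% lower. The share that rose was 44.8% of the one-intron genes and 54.7% of all introns; among introns of genes with several introns it was 40.4% of first, 46.9% of last and 58.3% of internal introns. The median change was 1.12 over the members and 1.57 over all introns tested, on the log2 scale. The difference between these shares was not tested, and the members' share lies between those of first and internal introns.

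AT3 and 2208L called fewer introns, with smaller groups. In AT3, 83 rose and 2 fell, where 19.7% of all introns were called, 19.4% higher and 0.317% lower; the members' median change was 0.81, or 0.87 with introns at 0 in 1 group set to a bound of 3 reads, against 1.10 and 1.15 over all introns. In 2208L, 80 rose and 2 fell, where 21.5% of all introns were called, 21% higher and 0.534% lower, with medians of 0.87 and 0.88 against 1.07 and 1.04. In T11, 3 were higher and 83 lower in the libraries labelled H3B-8800, where 20.4% of all introns were called, 0.761% higher and 19.6% lower, with medians of -0.61 and -0.62 against -0.84 and -0.87. The AT3 count of 85 fell to 37, 51 and 19 calls without vehicle replicate 1, vehicle replicate 3 and H3B-8800 replicate 2. The 2208L count of 82 fell to 40 without vehicle replicate 1, the library high in muscle markers, and the T11 count of 86 to 56 without the library labelled H3B-8800 replicate 1.

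A larger count in PyMT-M does not show a larger change there. When the PyMT-M change was tested against that of AT3, edgeR called 0 of the 417 introns (0.00192% of all introns; 47 of the 417 at an unadjusted p under 0.05, smallest adjusted p 0.155). Against 2208L it called 2, where 0.115% of all introns were called, 0.0845% higher and 0.0307% lower, and 65 of the 417 had an unadjusted p under 0.05. Leaving out single libraries gave 0 to 4 calls: 0 without PyMT-M H3B-8800 1, 2208L vehicle 3 or 2208L H3B-8800 3, and 4 without PyMT-M vehicle 3. Against AT3 there were 4 calls without PyMT-M vehicle 1 and 2 without PyMT-M vehicle 3. One was Commd5, a COMM domain protein, with a difference of 4.64 and an adjusted p of 0.034. Its intron held 92.5%, 75.5%, 72.8% and 76.2% of reads in PyMT-M under H3B-8800, against 13.9%, 2.86%, 29.6% and 14.5% under vehicle, but 37.7%, 21.2% and 30.7% in 2208L under H3B-8800, against 33.3%, 29.5% and 22.9% under vehicle. The other was Scx, a transcription factor of tendon cells, with a difference of -5.16 and an adjusted p of 0.014. Scx rose in 2208L, at 71.1%, 74.1% and 78.2% under H3B-8800 against 27.1%, 38.9% and 17.4% under vehicle. In PyMT-M it passed as lower on few reads, at 30.8%, 50% and 50% in the 3 H3B-8800 libraries with reads, against 50%, 80%, 100% and 87.5% under vehicle (-2.30 ± 0.81, adjusted p = 0.014), and those groups met at 50%. The difference thus joins a rise in 2208L to a fall in PyMT-M.

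A set of introns passed as higher in all 3 models that followed their labels. It held 45 of the 417 (10.8%), and the same count over all introns tested was 5546 (10.7%). Its size rests on the AT3 and 2208L calls, whose counts fell without some single libraries, as given above. Ubb and Tgif1, for example, lost their AT3 call without single libraries. How many of the 45 would remain was not counted. Of the 45, 40 passed as lower in T11 tumors labelled H3B-8800 (88.9%) and all 45 had a negative change there. Of the 5546 introns of the series 74.2% passed as lower and 99.5% had a negative change in T11. PyMT-M and AT3 shared 76 introns that rose, 40.6% of those of PyMT-M and 91.6% of those of AT3. PyMT-M and 2208L shared 67, 35.8% and 83.8%, and AT3 and 2208L 48, 57.8% and 60%. Over all introns tested the shares were 33.3% and 93.7%, 35.3% and 92.0%, and 55.6% and 51.4% for these pairs, and no difference from them was tested. No intron fell in all 3, and 185 of the 417 (44.4%) passed the test in no model, against 35.2% of all introns. Across the 417 introns the changes had a Spearman correlation between models of 0.57 for PyMT-M and AT3, 0.54 for PyMT-M and 2208L and -0.63 for PyMT-M and T11, all read from 1 fit of the same introns.

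**Figure D2:**
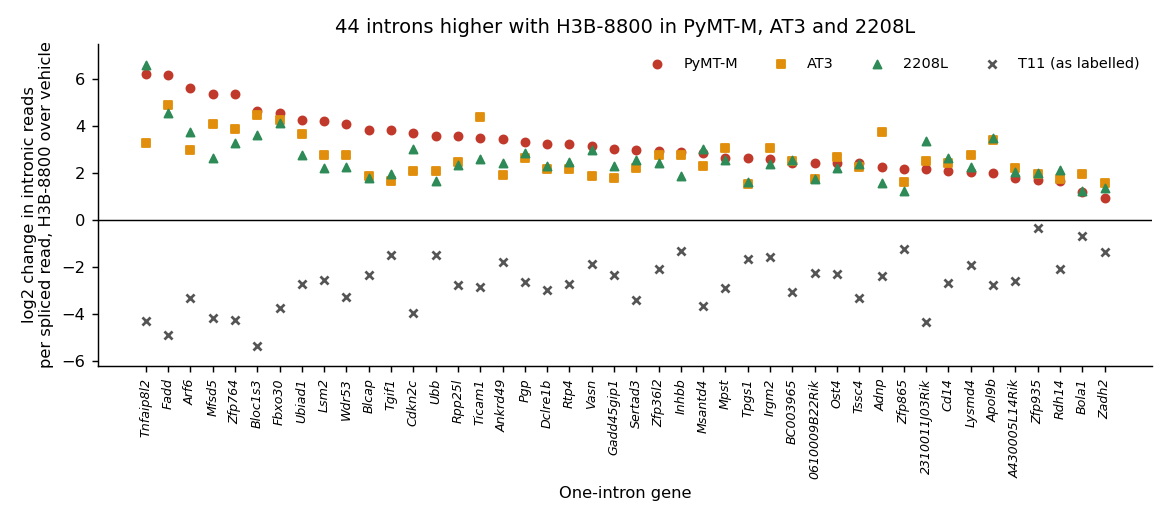
Fitted log2 change in retention (y axis, H3B-8800 over vehicle, as labelled in T11) of 44 of the 45 introns of one-intron genes that rose in PyMT-M, AT3 and 2208L, with 1 column per gene and 1 marker per model. The direction in those 3 models was set by the choice of introns, and the T11 markers lie below 0; the 2208L marker of Tnfaip8l2 was fitted against vehicle libraries at 0 and is no measured size.

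Ubb, which encodes a string of ubiquitin copies, has an intron of 544 bases in the 5′ UTR (chr11:62551596-62552139, plus strand) and stayed at low percents. In PyMT-M it held 8.50%, 6.70%, 6.55% and 7.38% of reads under H3B-8800, against 1.02%, 0.216%, 0.892% and 0.425% under vehicle, without overlap (3.59 ± 0.52, adjusted p = 7.9e-07). It passed in AT3 (2.10, adjusted p = 0.015) and 2208L (1.66, adjusted p = 0.042). Both calls rested on single libraries: the AT3 adjusted p was up to 0.241 without vehicle 1, vehicle 3 or H3B-8800 2, and the 2208L one up to 0.195 without any library but vehicle 2.

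Fadd, Ticam1 and Tnfaip8l2 were named for their own retention values, not as members of 1 list. Cd14 was named for its lower level in 2208L and as the member of the Toll-like receptor list with most spliced reads. Fadd encodes the adaptor that joins death receptors to caspase-8, and its intron of 1243 bases interrupts the coding sequence (chr7:144580861-144582103, minus strand) and is overlapped by Faddos on the other strand. In PyMT-M it held 96.3%, 92.6%, 92.3% and 91.1% of 179 to 351 reads under H3B-8800, against 24.0%, 6.06%, 14.3% and 18.8% of 32 to 50 reads under vehicle (6.20 ± 0.64, adjusted p = 2.6e-09). In every treated PyMT-M tumor the large majority of Fadd reads lay in the intron. The percents were 82.5 and 96.3 under H3B-8800, against 34.5, 22.6 and 38.5 under vehicle in AT3 (4.91 ± 0.73, adjusted p = 3.6e-05), and 93.2, 69.9 and 84.0 against 16.1, 22.9 and 25 in 2208L (4.57 ± 0.71, adjusted p = 3.5e-05). In T11, tumors labelled H3B-8800 held 30%, 31.2% and 58.7%, against 98.2%, 93.5% and 95.2% in those labelled vehicle (-4.89 ± 0.69, adjusted p = 5e-06).

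Ticam1, the TRIF adaptor of Toll-like receptors, has a longer intron of 4476 bases in the 5′ UTR. In AT3 it held 100% and 91.1% of reads under H3B-8800, against 43.5%, 56.2% and 62.5% under vehicle (4.37 ± 0.78, adjusted p = 0.00024). It also rose in PyMT-M, at 96.7%, 86.3%, 92.7% and 94.7% under H3B-8800, against 51.8%, 47.1%, 40% and 76.1% under vehicle (3.51 ± 0.57, adjusted p = 3.6e-06). Tnfaip8l2, a TNFAIP8 family gene of immune cells, held 92.0%, 80.8%, 87.6% and 84.6% in PyMT-M under H3B-8800, against 0%, 20%, 9.52% and 0% under vehicle (adjusted p = 5.6e-07). In 2208L it held 46.6%, 30.6% and 24.2% under H3B-8800, while the 3 vehicle libraries had 0 of 68 reads in the intron, which allows up to 4.41% (adjusted p = 0.0016). Cd14, the co-receptor for bacterial lipopolysaccharide, rose in PyMT-M by 2.11 (adjusted p = 4.9e-06), in AT3 by 2.43 (adjusted p = 0.00035) and in 2208L by 2.66 (adjusted p = 2.3e-05). In 2208L its intron held 77.9%, 75.3% and 71.5% under H3B-8800, against 36.3%, 30.7% and 29.8% under vehicle.

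Among short introns, that of Arf6, whose 3′ end is printed above, changed from few to most of the reads in PyMT-M and 2208L. Arf6, a small GTPase of membrane traffic and the actin cortex, has an intron of 100 bases in the 5′ UTR (chr12:69372224-69372323, plus strand), overlapped by Gm9887 on the other strand. In PyMT-M it held 91.1%, 81.6%, 86.2% and 84.1% of reads under H3B-8800, against 6.80%, 7.41%, 13.5% and 19.6% under vehicle (5.61 ± 0.55, adjusted p = 7.7e-10). In 2208L it held 70.5%, 65.3% and 69.4% under H3B-8800, against 3.12%, 21.7% and 13.3% under vehicle (3.77 ± 0.62, adjusted p = 7.3e-05). AT3 had a smaller fitted change, 2.99 ± 0.57 (adjusted p = 0.00059), and T11 one of -3.31 ± 0.54 (adjusted p = 3.6e-05), as labelled.

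Uqcc3, an assembly factor of mitochondrial complex III, has an intron of 89 bases that held very few reads in vehicle tumors of PyMT-M, AT3 and 2208L. In PyMT-M it held 22.9%, 11.1%, 13.8% and 13.6% of reads under H3B-8800, against 0%, 0%, 0% and 0.400% under vehicle (adjusted p = 6.9e-07). All vehicle libraries together gave 1 read of 906, a share of 0.110% with a 95% Wilson interval of 0.0195% to 0.623%, while the H3B-8800 libraries gave 178 of 1143, with an interval of 13.6% to 17.8%. In T11 the libraries labelled H3B-8800 had 0 of 277 reads in the intron, which allows up to 1.08%, against 10.2%, 14.4% and 15.8% in those labelled vehicle (adjusted p = 0.00043). Such intervals and limits cover counting error only. Pgp, a phosphoglycolate phosphatase with an intron of 92 bases, held 70.8%, 68.7%, 61.7% and 64.0% in PyMT-M under H3B-8800, against 19.8%, 14.8%, 17.1% and 15.1% under vehicle (3.31 ± 0.39, adjusted p = 1.7e-08), and rose in AT3 (2.63) and 2208L (2.86).

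Other 5′ UTR introns with large changes belonged to Mfsd5 and Bloc1s3. Mfsd5, a membrane transporter of the major facilitator family, held 95.6%, 90.1%, 88.5% and 88.6% in PyMT-M under H3B-8800, against 18.6%, 25%, 25.5% and 15.4% under vehicle (5.36 ± 0.53, adjusted p = 1.1e-09). Bloc1s3, a subunit of the BLOC-1 complex that builds lysosome-related organelles, held 91.3% and 98.0% in AT3 under H3B-8800, against 39.4%, 66.7% and 40.0% under vehicle (4.47 ± 0.73, adjusted p = 9.8e-05). Bloc1s3 also rose in PyMT-M (4.64) and 2208L (3.60), and was lower in T11 as labelled (-5.35, adjusted p = 2.7e-06).

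**Figure D3:**
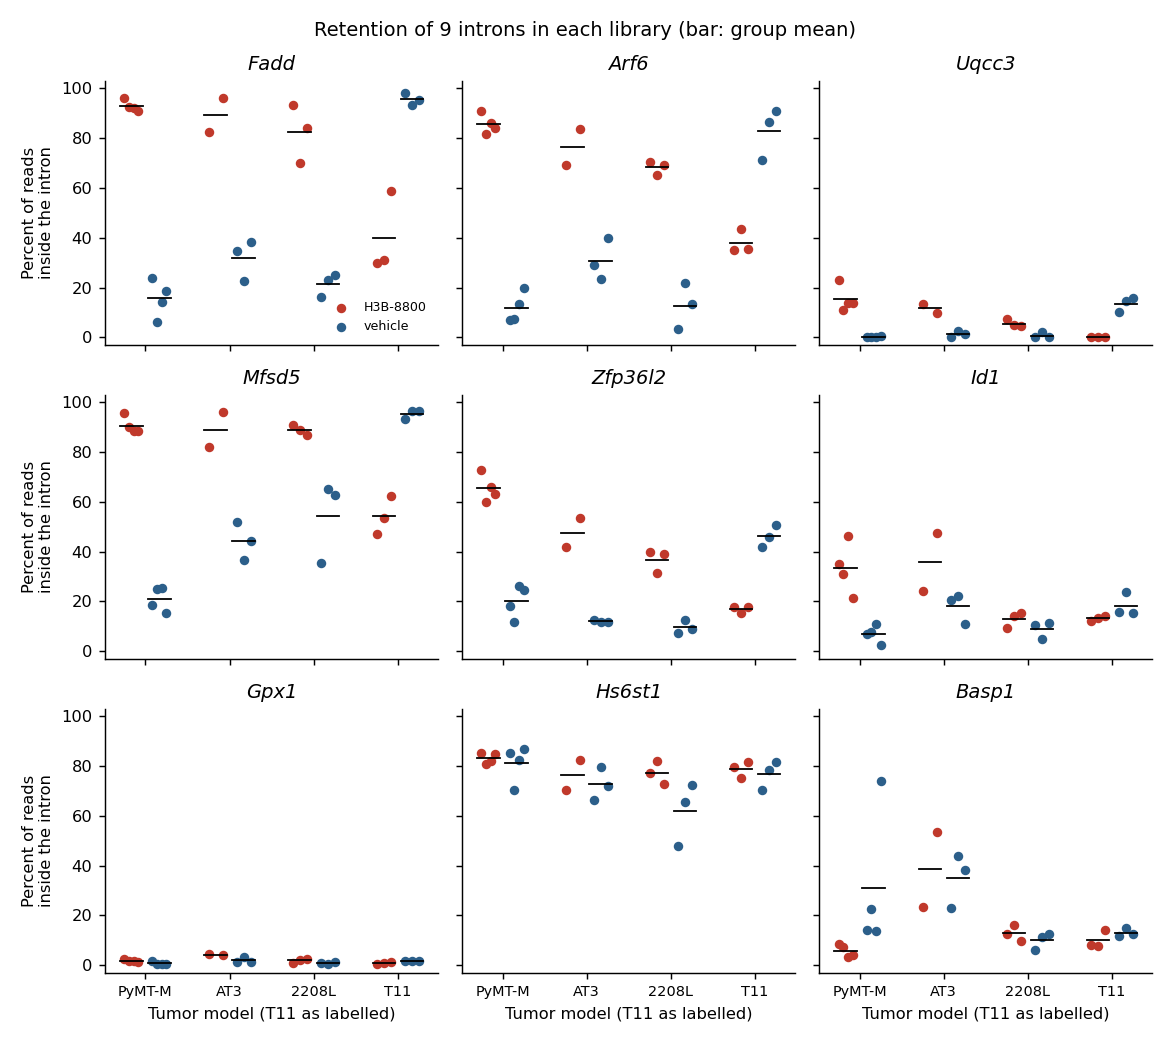
Percent of reads inside the intron per library (points) for 9 one-intron genes, by model, with H3B-8800 left of vehicle in each. Fadd, Arf6, Uqcc3, Mfsd5, Zfp36l2 and Id1 lie higher under H3B-8800 in PyMT-M without overlap, Gpx1 stays under 5% in every library, Hs6st1 lies over 70% in PyMT-M under both treatments, and Basp1 lies lower under H3B-8800 in PyMT-M.

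Immediate early and stress response genes, which are switched on within minutes to hours of a stimulus, were described as a list. Of 53 listed genes 19 had a single listed intron and 14 were tested; 8 rose and none fell in PyMT-M, where 54.7% of all introns rose, with a median change of 1.42 against 1.57 over all introns tested. In AT3 3 rose and in 2208L 4 rose, where 19.4% and 21% of all introns rose. In T11 3 were lower as labelled, where 19.6% of all introns were lower. Zfp36l2, an RNA-binding protein that promotes decay of AU-rich messages, rose in PyMT-M, AT3 and 2208L. It held 72.9%, 60%, 66.0% and 63.2% in PyMT-M under H3B-8800, against 18.1%, 11.8%, 26.3% and 24.5% under vehicle (2.95 ± 0.37, adjusted p = 7e-08). In AT3 it held 41.9% and 53.5% under H3B-8800, against 12.5%, 11.9% and 11.8% under vehicle (2.77 ± 0.45, adjusted p = 9.6e-05).

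Among the list's other members, Egr1, a zinc finger factor of the growth response, rose in PyMT-M by 3.21 (adjusted p = 7.7e-06). Its percents there were 51.2, 48.8, 63.3 and 53.9 under H3B-8800, against 16.3, 7.46, 10 and 9.62 under vehicle. Cited2, a co-regulator that binds CBP and p300, rose by 3.12 (adjusted p = 3e-07) and Sertad3, a SERTA domain co-regulator, by 2.97 (adjusted p = 1e-06). Sertad3 rose in AT3 (2.23) and 2208L (2.57) as well. These 3 were picked from the list after their values were seen. Tsc22d3, the glucocorticoid-induced leucine zipper, did not pass, at 18.6%, 23.0%, 24.4% and 14.5% under H3B-8800, against 17.2%, 12.1%, 21.5% and 14.5% under vehicle in PyMT-M (0.37 ± 0.44, adjusted p = 0.48).

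Developmental transcription factors showed a mixed picture with few readable members. Of 39 Hox genes listed, 30 had a single listed intron, but only 4 passed the minimum of intronic and spliced reads. In PyMT-M, where 54.7% of all introns rose and 5.68% fell, 2 rose and 1 fell. Their median was 0.64 once introns at 0 in 1 group were set to a bound. Of 64 other developmental factors 28 had a single listed intron and 5 were tested, of which 4 rose in PyMT-M, beside the same share over all introns. Id1, an inhibitor of basic helix-loop-helix factors, held 35.2%, 31.0%, 46.2% and 21.4% there under H3B-8800, against 6.82%, 7.69%, 11.1% and 2.56% under vehicle (2.83 ± 0.59, adjusted p = 0.00013). In AT3 Id1 did not pass although its groups did not overlap, at 24.1% and 47.5% under H3B-8800, against 20.7%, 22.2% and 11.1% under vehicle (1.39 ± 0.66, adjusted p = 0.13). Bhlha15, the secretory cell factor Mist1, rose in PyMT-M by 2.80 (adjusted p = 3.2e-06) and passed in 2208L (adjusted p = 0.00025). In 2208L its intron held 66.7%, 50% and 64% under H3B-8800, against 0%, 0% and 9.09% under vehicle. The vehicle value rests on 2 of 44 reads, both in replicate 3, so no fold is given. Twist1, a factor of mesenchymal cells, rose in PyMT-M by 2.13 (adjusted p = 0.00067).

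Feedback inhibitors of cytokine and growth factor signalling came next. All 5 SOCS and Sprouty genes with a single listed intron were tested, and 2 rose in PyMT-M, where 54.7% of all introns rose, with a list median of 0.86 against 1.57 over all introns; in AT3 the list median was 1.28 against 1.10. Spry2, which dampens receptor tyrosine kinase signalling, held 84.6%, 77.1%, 79.8% and 81.0% under H3B-8800, against 68.5%, 39.7%, 61.6% and 49.7% under vehicle (1.65 ± 0.37, adjusted p = 0.00029). Socs3, which blocks JAK kinases, rose by 1.66 ± 0.51 (adjusted p = 0.0051).

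Most receptors of leukocytes and stroma were under the minimum of intronic and spliced reads for retention. Of 25 chemoattractant receptors with a single listed intron only 5 were tested for retention, and in PyMT-M, where 54.7% of all introns rose and 5.68% fell, 2 rose and 1 fell. Cxcr4, the receptor for the chemokine CXCL12, held 70.7%, 51.0%, 72.1% and 55.3% in PyMT-M under H3B-8800, against 36.3%, 12.3%, 27.9% and 16.0% under vehicle (2.43 ± 0.56, adjusted p = 0.00042). It did not pass in 2208L, at 27.9%, 31.8% and 40.7% under H3B-8800, against 19.0%, 34.3% and 32.9% under vehicle (0.27 ± 0.64, adjusted p = 0.8). Of 8 tested receptors for lipids, nucleotides and proteases 3 rose and 1 fell in PyMT-M, beside the same shares over all introns. S1pr2, a receptor for sphingosine 1-phosphate, held 78.0%, 69.3%, 73.5% and 73.5% under H3B-8800, against 59.1%, 37.1%, 56.6% and 66.5% under vehicle (1.09 ± 0.38, adjusted p = 0.014, but 0.0603 without vehicle replicate 2).

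The remaining lists held few tested introns, and their counts stand beside 54.7% of all introns that rose and 5.68% that fell in PyMT-M. There 2 of 9 glycosyltransferase and sulfotransferase genes rose, 1 of 9 small mitochondrial genes rose and 1 fell, 1 of 2 connexins rose, 2 of 3 leucine-rich repeat genes fell, and Cd14 was the 1 tested member of the Toll-like receptor list. Ion channels (12 members), epidermal small proline-rich genes (37), beta-defensins (35) and secreted ribonucleases (7) had no member past the read minimum for retention. That minimum counts intronic reads as well as spliced ones, so an intron that is almost fully spliced can miss it. Defb22, a beta-defensin, had 41 to 884 spliced reads per PyMT-M library, but too few intronic reads.

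Retention changes followed intron length, as a description over the 417 introns. In PyMT-M 11 of 13 introns of up to 120 bases rose (84.6%), 16 of 23 above 120 and up to 300 (69.6%), 41 of 75 up to 1000 (54.7%), 54 of 104 up to 3000 (51.9%), 59 of 133 up to 10000 (44.4%) and 6 of 69 above 10000 (8.70%). Of the 24 that fell, 17 were above 10000 bases, 24.6% of that class. Introns of genes with several introns gave 77.8%, 71.1%, 66.8%, 58.9%, 42.5% and 10.9% in the same classes. The shortest class has only 13 one-intron genes, and the order of the other 5 classes does not rest on it. The Spearman correlation of length and change was -0.41 in PyMT-M, -0.24 in AT3, -0.19 in 2208L and 0.39 in T11. Longer introns also hold more reads and more other annotated exons, and the part of these in the pattern was not tested.

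**Figure D4:**
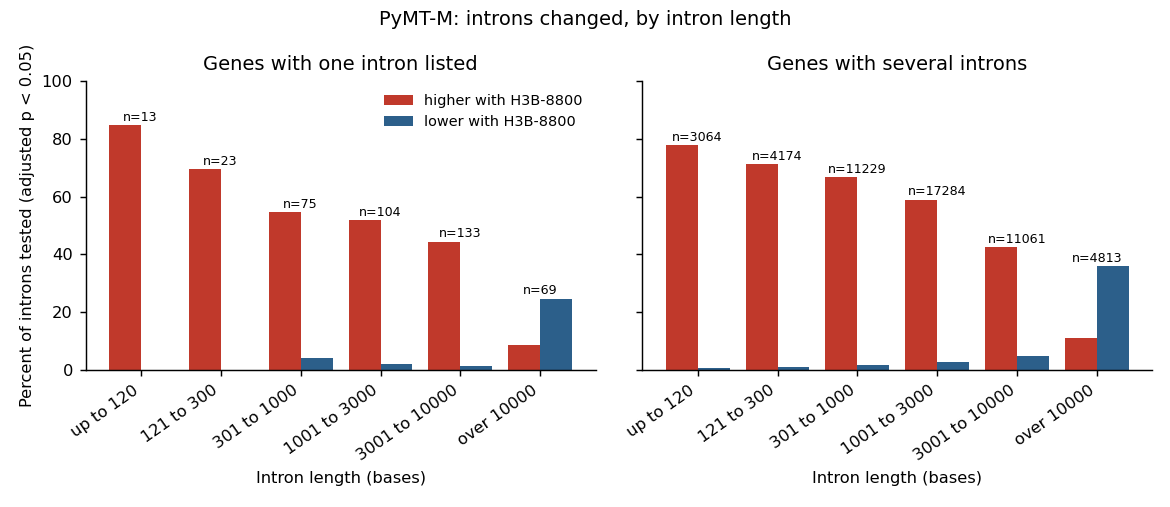
Percent of tested introns that rose (red) or fell (blue) with H3B-8800 in PyMT-M, by intron length class in bases, with the number tested above the bars; the left panel shows one-intron genes and the right panel introns of genes with several introns. The share of one-intron genes that rose was 84.6% of 13 in the shortest class and 8.70% of 69 in the longest.

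Introns in the 5′ UTR stood above those in the coding sequence in both groups of tumors. In PyMT-M the median 5′ UTR intron held 61.6% of reads under H3B-8800 and 36.6% under vehicle, against 43.2% and 23.4% for coding introns, and 70 of 125 5′ UTR introns rose (56.0%) against 113 of 274 coding ones (41.2%). In AT3 31 of 125 and 51 of 274 rose, and in 2208L 28 of 125 and 51 of 274. Over all introns tested, 54.7% rose and 5.68% fell in PyMT-M, 19.4% rose in AT3 and 21% rose in 2208L. The 5′ UTR share in PyMT-M was thus near that of all introns. These shares were not tested against each other. Of the 3′ UTR introns 3 of 15 rose in PyMT-M. Introns with no annotated exon inside rose in 141 of 287 cases and those with one in 46 of 130. Where the listed transcript truly had 1 intron in GENCODE M21, 133 of 277 rose and 13 fell in PyMT-M; where it had more, 50 of 134 rose and 11 fell.

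Some introns held nearly all reads of their gene in every tumor, and some held very few. Hs6st3, a heparan sulfate sulfotransferase with the longest intron of all members (729767 bases), held 98.9% to 100% of its reads there in all 25 libraries, and Rab39, a small GTPase whose intron holds the pseudogene Rps6-ps3, 97.8% to 100%. Rbm15, an RNA-binding protein of the m6A writer complex, held 99.6%, 99.3%, 99.0% and 99.2% in PyMT-M under H3B-8800, against 97.1%, 92.4%, 94.9% and 87.9% under vehicle (2.80 ± 0.46, adjusted p = 6.1e-06). Spliced Rbm15 reads were 0.128 ± 0.0384 CPM under H3B-8800 and 1.73 ± 0.87 CPM under vehicle (-3.65 ± 0.67, adjusted p = 0.00054). These were 1, 2, 2 and 2 reads under H3B-8800, against 16, 26, 17 and 34 under vehicle. Both Rbm15 changes thus rest on few treated reads, and their size is uncertain.

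At the other end, Ifitm3, Gpx1, Serf2, Ifitm2, Nop10 and Ndufv3 stayed under 5% in every library. Gpx1, a glutathione peroxidase whose intron of 218 bases is printed above, held 2.68%, 1.53%, 1.85% and 1.33% in PyMT-M under H3B-8800, against 1.77%, 0.635%, 0.576% and 0.509% under vehicle (1.08 ± 0.51, adjusted p = 0.064), with overlap. Ifitm3, an interferon-induced block to virus entry, held 0.547% to 1.46% under H3B-8800 and 0.960% to 1.07% under vehicle in PyMT-M (0.07 ± 0.47, adjusted p = 0.91), and shares sequence with its family. Hs6st1, another heparan sulfate sulfotransferase with an intron of 34328 bases, held 85.5%, 80.8%, 82.0% and 85.1% under H3B-8800, against 85.1%, 70.3%, 82.5% and 87.0% under vehicle (0.07 ± 0.36, adjusted p = 0.88).

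Few introns lost reads. Pwwp2a, a chromatin protein that binds the histone variant H2A.Z, has an intron of 21917 bases that holds another annotated exon and belongs to a transcript of 3 introns in GENCODE M21. It held 72.0%, 63.3%, 40.0% and 69.2% in PyMT-M under H3B-8800, against 90.2%, 91.9%, 91.1% and 90.1% under vehicle (-2.53 ± 0.47, adjusted p = 2.5e-05). Basp1, a membrane-bound growth cone protein with an intron of 48633 bases, held 8.42%, 7.27%, 3.23% and 4.17% under H3B-8800, against 14%, 22.5%, 14% and 74.0% under vehicle (-3.77 ± 0.73, adjusted p = 5.9e-05). The fitted change of Basp1 was -1.74 without vehicle replicate 4, still past the test (adjusted p = 0.00915). Uqcr10, a small subunit of mitochondrial complex III, held 3.62%, 6.71%, 4.09% and 4.94% under H3B-8800, against 11.5%, 6.74%, 10.6% and 9.84% under vehicle (-1.07 ± 0.37, adjusted p = 0.012), with the lowest vehicle library just above the highest treated one. In 2208L Slfn1, a Schlafen gene of lymphoid and myeloid cells, held 38.3%, 30.4% and 45.2% under H3B-8800, against 75.0%, 63.5% and 91.2% under vehicle (-2.72 ± 0.65, adjusted p = 0.0031, but 0.0517 without vehicle replicate 3).

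Levels of spliced transcript were tested next. In PyMT-M 54 of 612 rose and 37 fell (14.9%), where 24.8% of all genes tested were called, 10.2% higher and 14.6% lower. In AT3 edgeR called 0 higher and 2 lower, where 0.3% of all genes were called, 0.123% higher and 0.177% lower. In 2208L 19 rose and 13 fell, where 10.3% were called, 4.67% higher and 5.67% lower. In T11 27 were higher and 11 lower as labelled, where 11.7% were called, 6.66% higher and 5.07% lower. The members' median change was 0.16, 0.01, 0.05 and -0.09 in the same order of models. These counts moved with single libraries. The 91 of PyMT-M were 52 without H3B-8800 3. The 32 of 2208L were 12, 10, 7 and 10 without vehicle 1, vehicle 3, H3B-8800 1 and H3B-8800 3. The 38 of T11 were 25 without vehicle 1, vehicle 2 or H3B-8800 1, 15 without H3B-8800 2 and 19 without H3B-8800 3, as labelled. The 2 of AT3 were 1 without vehicle 1 or vehicle 3, 0 without H3B-8800 1 and 19 without H3B-8800 2. In whole tumors, fewer cells of a type and less RNA per cell cannot be told apart.

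Retention and level moved in opposite directions for part of the genes, though the spliced reads enter both measures. Of the 187 genes whose intron rose in PyMT-M, 20 fell in level and 9 rose, where 14.6% of all genes tested fell and 10.2% rose. Their median level change was -0.03, against 0.02 over all genes. Of the other 230 tested, 8 fell and 33 rose, with a median of 0.28. In 2208L 5 of the 80 fell in level and 0 rose, against 5 and 14 of the other 337. In T11, 11 of the 83 with lower retention in libraries labelled H3B-8800 were higher in level and 2 lower, against 8 and 9 of the other 334. Over all genes tested, 5.67% fell and 4.67% rose in 2208L, and 6.66% were higher and 5.07% lower in T11. No difference between any of these shares was tested. When intronic reads were added to the spliced reads as the level, 113 members rose and 49 fell in PyMT-M. The share over all genes by that measure is not given here.

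**Figure D5:**
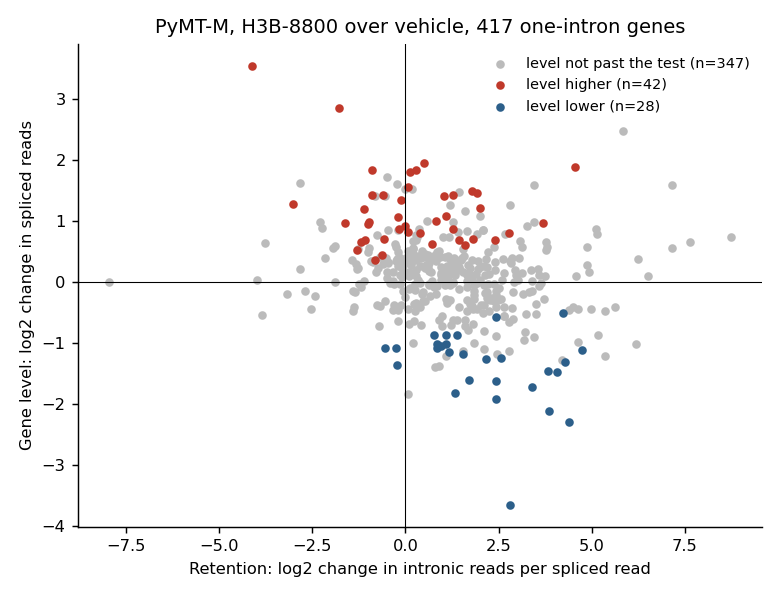
Log2 change of gene level (y axis) against log2 change of retention (x axis) in PyMT-M for the 417 one-intron genes tested for both, H3B-8800 over vehicle. Points are colored by the call on level: 42 higher, 28 lower and 347 that did not pass.

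Tgif1, a homeobox repressor of TGF-beta target genes, changed in both measures. Its intron, whose 3′ end is printed above, held 65.3%, 46.9%, 55.4% and 65.0% in PyMT-M under H3B-8800, against 12%, 4.50%, 10.4% and 9.77% under vehicle (3.83 ± 0.47, adjusted p = 4.1e-08). The spliced level was 5.38, 5.16, 3.54 and 5.39 CPM under H3B-8800, against 17.4, 14.5, 8.20 and 13.6 CPM under vehicle (-1.46 ± 0.22, adjusted p = 1e-04), without overlap. With intronic reads added the change was -0.60 and did not pass (adjusted p = 0.0719). GENCODE M21 gives this transcript 2 introns, so 1 junction stood for the gene.

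Cxcr4 and Tmem60 gave the same pair of calls in PyMT-M. Spliced Cxcr4 was 1.60, 1.61, 0.944 and 1.57 CPM under H3B-8800, against 5.66, 4.85, 5.86 and 5.45 CPM under vehicle (-1.92 ± 0.32, adjusted p = 0.00021), and with intronic reads added it still fell, by 1.21 (adjusted p = 0.0091). Tmem60, a small membrane protein, was at 2.47, 2.61, 2.91 and 2.24 CPM under H3B-8800, against 5.73, 5.33, 5.49 and 7.78 CPM under vehicle (-1.24 ± 0.27, adjusted p = 0.0022), while with intronic reads added the change was -0.38 and did not pass (adjusted p = 0.235). In 2208L spliced Cd14 was 16.4, 19.2 and 20.2 CPM under H3B-8800, against 55.2, 70.0 and 76.9 CPM under vehicle (-1.86 ± 0.37, adjusted p = 0.0046), and with intronic reads added the change was -0.55 and did not pass (adjusted p = 0.319). Macrophage markers, a cell type that makes Cd14, were higher under H3B-8800 in those 2208L tumors, and their part in the value was not tested.

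Rgs19, a regulator that shortens signalling of G proteins, was the one member whose level passed in all 4 models. It was at 3.01 and 4.14 CPM in AT3 under H3B-8800, against 9.68, 10.3 and 10.6 CPM under vehicle (-1.51 ± 0.26, adjusted p = 0.014, but 0.179 without H3B-8800 replicate 1). In 2208L it was at 3.10, 4.14 and 3.48 CPM under H3B-8800, against 7.96, 6.47 and 7.94 CPM under vehicle (-1.06 ± 0.22, adjusted p = 0.0059), and in PyMT-M at 3.06 ± 0.287 against 5.58 ± 0.584 CPM (-0.87 ± 0.19, adjusted p = 0.0025). T11 libraries labelled H3B-8800 stood at 8.49, 9.93 and 9.13 CPM, against 4.58, 2.68 and 3.17 CPM in those labelled vehicle (1.41 ± 0.22, adjusted p = 0.00046). No library of 1 group overlapped the other in any model. With intronic reads added the changes were -1.32, -0.92, -1.04 and 1.35 in the same order, all past the test. The result in all 4 models depended on the setting, although no direction changed. Without the 6 libraries with muscle or B cell markers, the AT3, 2208L and PyMT-M changes in spliced level did not pass. When each model was fitted with its own libraries alone, the AT3 and T11 changes did not pass. GENCODE M21 gives the Rgs19 transcript 5 introns, of which 1 is listed.

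Isg15 and Ly6c1 were among the members that rose in level in PyMT-M. They were named for their own changes, not as a set of interferon or myeloid genes. Isg15, a ubiquitin-like protein induced by interferon, was at 20.2, 56.2, 82.1 and 36.2 CPM in PyMT-M under H3B-8800, against 12.5, 19.2, 19.7 and 17.4 CPM under vehicle (1.5 ± 0.34, adjusted p = 0.0034). It fell in AT3, at 1.51 and 1.93 CPM under H3B-8800, against 8.33, 6.48 and 17.8 CPM under vehicle (-2.65 ± 0.55, adjusted p = 0.038, up to 0.277 without vehicle 1, vehicle 3 or H3B-8800 1). The difference between both models was 4.15 ± 0.65 (adjusted p = 0.0063 over all genes). Ly6c1, a surface antigen of monocytes and endothelium with a near-identical paralog, was at 4.22, 6.64, 7.39 and 11.4 CPM in PyMT-M under H3B-8800, against 2.62, 1.30, 2.34 and 3.03 CPM under vehicle (1.68 ± 0.34, adjusted p = 0.0015). Macrophage markers were higher in the same PyMT-M libraries, without overlap, and their part in these values was not tested.

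Other members also changed in level in PyMT-M. Smim22, a small membrane protein of epithelial cells, was at 7.86, 4.96, 10.2 and 7.26 CPM under H3B-8800, against 1.10, 1.09, 2.05 and 2.77 CPM under vehicle (2.12 ± 0.44, adjusted p = 0.0023). Klf9, a zinc finger factor induced by glucocorticoids, was at 5.75, 7.44, 8.34 and 5.01 CPM under H3B-8800, against 2.56, 2.53, 3.00 and 1.82 CPM under vehicle (1.42 ± 0.32, adjusted p = 0.0034). In T11 Klf9 was lower as labelled, at 1.89, 0.764 and 1.15 CPM in libraries labelled H3B-8800, against 4.58, 4.43 and 5.54 CPM in those labelled vehicle (-1.95 ± 0.39, adjusted p = 0.0031). Cd52, a surface glycoprotein of lymphocytes, was higher there, at 9.75, 25.8 and 8.44 CPM in libraries labelled H3B-8800, against 3.32, 2.56 and 4.17 CPM in those labelled vehicle (2.13 ± 0.37, adjusted p = 0.00095); the highest of these libraries also held 125 CPM of B cell and 71.4 CPM of T cell markers.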

How the data were processed

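Whole-tumor RNA of 25 libraries was sequenced from polyadenylated, stranded libraries. The aligner HISAT2 2.0.4 and the builds mm10 and hg38 are named, without a role, per the submitters' processing notes. The counting tool, the annotation release and any use of strand were not given in the sources used here. The authors deposited, per library, a read count inside each intron and a count of all reads overlapping it, both raw, and RPKM values that the authors normalised per kilobase and depth. The RPKM values were only checked, by recomputing them from the deposited counts. Groups follow the labels.

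Retention was tested with edgeR 4.0.16 (limma 3.58.1, R 4.3.3) by quasi-likelihood with robust dispersion, 8 group means and all libraries in 1 fit, with spliced reads plus 0.5 as offset. The minimum was a gene CPM of 1 in 2 libraries and, for introns, also a mean of 5 intronic and 10 spliced reads. Gene levels used TMM scaling. Adjusted p-values under 0.05 over the whole table were called. The SE is the fold change over the square root of F. DESeq2 1.42.0 was an alternative for retention and for levels, and the closing section gives the others. Tables were handled in pandas 2.3.3 and numpy 2.4.6, and plots drawn in matplotlib 3.10.9. Scripts were tested on simulated data. Deposited intervals hold 1 exon base on each side, which was removed from coordinates. Of the members, 5 introns without an overlapping count were left out.

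Members and gene lists were chosen with earlier results of these data known. Named genes were the largest changes past the test in each model and direction with enough reads and groups that did not overlap, the introns highest in vehicle, those under 5% in every library, and the members of each list with most spliced reads; predicted genes and pseudogenes were not named. Genes outside this rule, chosen after their values were seen, were Pgp, BC003965, Ankrd49, Commd5, Scx, Egr1, Cited2 and Sertad3. A few results are not reported here.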

Additional observations from a re-analysis of the deposited data

Results flagged for a closer look

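Within groups of 4 tumors, single libraries stood apart for 5 named values, among 54 groups examined; chance alone marks about 1 in 20 groups. Spliced Cxcr4 was 0.944 CPM in PyMT-M H3B-8800 replicate 3, where the nearest other treated tumor had 1.57 CPM. The same library was lowest for Tgif1, at 3.54 CPM against 5.16 CPM in the nearest. PyMT-M vehicle replicate 4 stood apart for the other 3 values. The Uqcc3 intron held 0.4% of its reads there, from 1 read, and 0% in the other vehicle tumors. The Basp1 intron held 74.0% of its reads there, against 22.5% in the nearest vehicle tumor. Spliced Tmem60 was 7.78 CPM there, against 5.73 CPM in the nearest.

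The response of 2 introns differed between PyMT-M and 2208L by the test of the difference itself in edgeR. Scx differed by -5.16 on the log2 scale (adjusted p = 0.0136), with a rise in 2208L (2.87, adjusted p = 0.00038) and, on few reads, a fall in PyMT-M (-2.30, adjusted p = 0.014). Commd5 differed by 4.64 (adjusted p = 0.0344), rising in PyMT-M and not in 2208L.

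The median percent over introns moved in opposite directions as labelled. In T11 it was -10.4 percentage points, labelled H3B-8800 minus labelled vehicle, where it was 20.8 in PyMT-M, 15.1 in AT3 and 11.5 in 2208L. These differences between models were not tested.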

How the results depend on the processing

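Counts of members called are given for settings that moved them by over 1.5 times. The retention count of PyMT-M (211) stayed within that range under every alternative run, 178 to 211 without single libraries. With DESeq2 the retention counts of all 4 models stayed within that range, among them 223 in PyMT-M, 99 in 2208L and 108 in T11. In AT3 (85) it was 52 with only transcripts of 1 intron and 19 to 89 without single libraries. In 2208L (82) it was 29 without 6 libraries with muscle or B cell markers, and 40 to 77 without single libraries. In T11 (86) it was 43 without those libraries, 57 with only transcripts of 1 intron, and 56 to 101 without single libraries. Level counts were less stable. PyMT-M (91) gave 162 with intronic reads added, 46 without the 6 libraries and 52 to 92 without single ones. AT3 (2) gave 10 with DESeq2, 9 with intronic reads added, 0 with its own libraries alone, 0 without the 6 libraries and 0 to 19 without single ones. 2208L (32) gave 58 with DESeq2, 59 with intronic reads added, 60 with its own libraries alone, 9 without the 6 and 7 to 40 without single ones. T11 (38) gave 0 with its own libraries alone, 8 without the 6 and 15 to 31 without single ones. The retention difference of PyMT-M and AT3 (0) gave 0 to 4 calls without single libraries, and that of PyMT-M and 2208L (2) also 0 to 4. Leaving libraries out leaves fewer samples; otherwise the cause was not tested.

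The pooled percent difference was 15.1 in PyMT-M (6.89) and 12.2 in AT3 (4.86) when averaged over introns instead; in AT3 it ran from -0.849 to 10.6 without single libraries. With intronic reads added, the T11 level changes of Bloc1s3 (-0.83), Fadd (-1.85) and Mfsd5 (-1.92) reversed. Of the named values under the alternatives, 2040 kept direction and call, 450 kept direction only and 3 reversed. The restriction to 1-intron transcripts and to libraries without those markers, and the pooled values without Scgb2b27, were chosen after seeing the data.

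Replicate numbers did not pair the tumors: deviations of same-numbered tumors correlated at 0.04 to 0.37 for PyMT-M levels and at -0.07 to -0.01 for retention. With the replicate number as a block, retention calls were 40 in AT3, and level calls 0 in AT3, 13 in 2208L and 17 in T11. Of the 1478 members 861 were under the minimum for level, of which 292 had no read in any library; low depth and absent expression cannot be told apart for these.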
